A study of Homo sapiens with 12 samples.

Results

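The genes described here are 72 developmental transcription factors of the homeobox and T-box classes, among 25647 genes measured in all 12 libraries. They were picked by a rule on names, as every numbered member of the PAX, LHX, NKX, TBX, DLX, IRX, MSX, GSX, PITX, OTX and EN families and of the family of SIX2, with 1 matching gene left out. No measured value entered that rule, but the set was chosen with earlier results of these data known. The homeobox families carry a homeodomain, a small helical fold that binds short AT-rich sites, and T-box factors bind DNA through a larger domain of their own. These factors set position and cell fate in the embryo, and in adult cells many of their genes are silenced by Polycomb complexes, which place the repressive H3K27me3 mark through the enzyme EZH2. Histone deacetylases remove the acetyl groups that go with active promoters, and LSD1 (KDM1A) removes methyl groups from H3K4.

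The study treated 3 human cancer lines with compounds that act on these enzymes and asked which genes, and which hard-to-detect proteins, then become measurable. A549 is a lung carcinoma line, HCT116 a colon carcinoma line and MHCC97H a line established as hepatocellular carcinoma. Each was grown untreated, with 1 µM TSA (trichostatin A, an inhibitor of class I and II histone deacetylases), with 50 µM GSK126 (an EZH2 inhibitor) or with 100 µM S2101 (an LSD1 inhibitor), and poly(A) RNA was sequenced. Every line gave 1 library per condition, so that a condition has 3 libraries of different lines (n = 3) and no repeat culture. The untreated libraries serve as control for all compounds; no vehicle or treatment time is stated in the labels. A549 and MHCC97H grew in DMEM and HCT116 in RPMI, so where HCT116 is set against the other lines, line and medium cannot be told apart.

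Library totals ran from 14468304 to 19061367 reads, and 3 reads correspond to 0.157 to 0.207 CPM (reads of a gene per 1e6 reads of the library). A check of the line labels against tissue markers gave mixed results. In MHCC97H the liver markers ALB and APOA1 stood at 0.205 to 1.04 and 0.205 to 0.374 CPM, but APOB and APOH at 10.7 to 22.2 and 6.5 to 20.4 CPM, and 5 to 7 of 10 liver markers were at 1 CPM or more (2 to 3 in A549 and 2 in HCT116). The intestinal keratin KRT20 stood there at 1030 to 2230 CPM and 6 of 8 intestinal markers were at 1 CPM or more. In HCT116 the intestinal factor CDX2 was at 12 to 12.6 CPM, but CDH17, LGALS4 and GPA33 did not exceed 1.81 CPM. A549 held KRT7 at 238 to 2690 CPM and no more than 0.27 CPM of the surfactant gene SFTPC. The summed level of 5 fibroblast markers was 5.82 to 39.7 CPM in the 9 libraries without TSA and 56.7 to 99.8 CPM in the 3 with it; COL1A1 and PDGFRB were called higher (log2 changes 3.62 ± 0.98 and 3.04 ± 0.76 SE), DCN was at 0 in 7 of the 8 A549 and HCT116 libraries, and the part of this shift in the results below was not tested. In bulk RNA, fewer cells that express a gene and less RNA per cell cannot be told apart. The A549 S2101 library also stood apart. Over 27 genes without a read in untreated A549 and with at least 100 under TSA, it held 512 reads against 6266 under TSA, 7.95% of the TSA level, where the A549 GSK126 library held 2.33%. MHCC97H libraries held 0.661 and 0.721% by the same measure, and in HCT116 it rested on 3 genes (6.98% with GSK126, 1.79% with S2101). Whether these A549 reads came from TSA-treated material or from the S2101-treated cells cannot be told apart from the counts.

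Of the 72 genes, 68 had a read in some library and 4 (GSX1, IRX1, NKX6-3 and OTX2) had none in any. That is 5.56% of the set, against 12.2% of all genes. At 1 CPM or more in some library were 56 genes, and 45 of these reached it in an untreated library. In all 12 libraries 9 genes were at 1 CPM or more, among them MSX1, OTX1, PITX1, SIX5, TBX3 and TBX5. The filter on low counts passed 53 for testing (73.6%, against 66% of all genes); the other 19 were described by their reads alone. LHX9 and NKX2-3, with 2.87 and 3.29 CPM summed over the libraries, fell just outside the filter, and IRX6 and DLX6, with 3.89 and 4.21, just inside it.

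**Figure D1:**
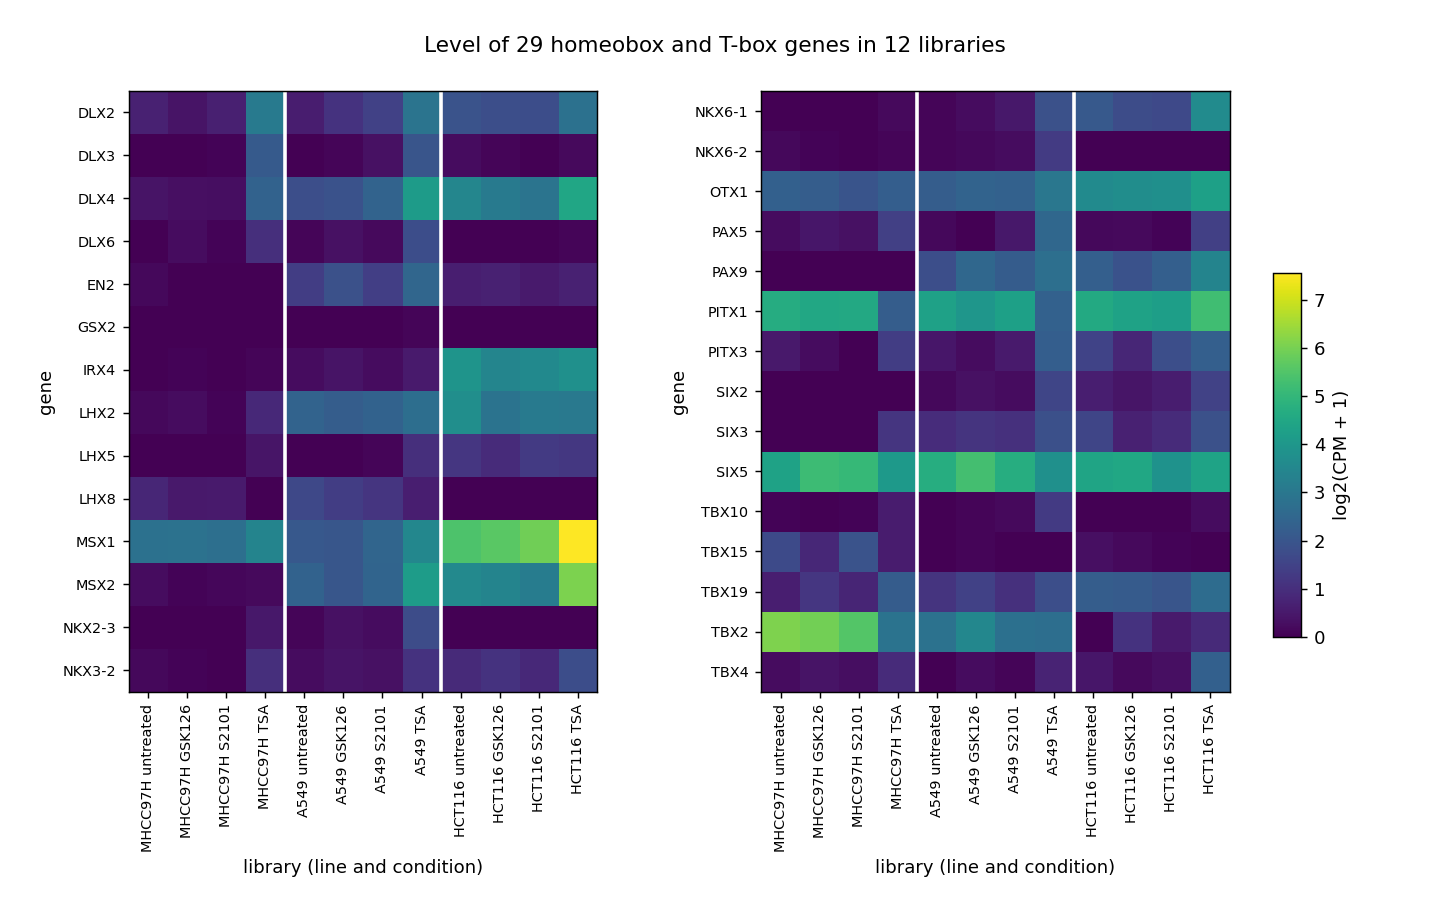
Level of 29 of the 72 genes (vertical axis, in family order over both panels) in the 12 libraries (horizontal axis, grouped by line), as log2(CPM + 1); darker cells are lower. They are the genes called or switched on in any comparison and the highest gene of each family by RPKM, and blocks that are light in a single line show genes such as TBX2 and IRX4.

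Most tested members differed between the lines: 46 of 53 were called (86.8%; over all genes tested the share was 67.7%), by edgeR's quasi-likelihood test with condition in the model. The 7 without a call were DLX2, DLX3, PAX5, PITX1, SIX5, TBX3 and TBX4. Counted by line, 15 of the 72 genes were at 1 CPM or more in all 4 MHCC97H libraries, 25 in all 4 of A549 and 26 in all 4 of HCT116.

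The leading gene per line, by RPKM (which divides the reads by gene length and library total, the scale that allows genes of different length to be compared), was TBX2 in MHCC97H, SIX5 in A549 and MSX1 in HCT116. TBX2, a repressor of the T-box class that holds back cell-cycle inhibitors, stood at 19.6 RPKM in untreated MHCC97H and at 1.82 in A549, and it had no read in HCT116 (adjusted p = 0.000585 between lines). MSX1, a homeodomain repressor of craniofacial and limb development, stood at 22.0 RPKM in untreated HCT116, 3.11 in MHCC97H and 1.68 in A549 (adjusted p = 6.02e-06). SIX5, a homeodomain factor next to the DMPK gene, lay between 3.8 and 11.4 RPKM in all 12 libraries, and no difference between lines was called (adjusted p = 0.249).

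Several members had most of their reads in 1 line or a pair of lines. Reads are given here for untreated, GSK126, S2101 and TSA in that order. PAX3, a factor of neural crest and muscle precursors, had 104, 107, 142 and 50 reads in MHCC97H, at most 2 in an A549 library and 0 in HCT116. NKX2-2, known from ventral neural tube and pancreatic islets, had 74, 56, 59 and 24 reads in MHCC97H, 0, 0, 0 and 6 in A549 and none in HCT116. TBX18, a factor of the epicardium and ureter, had 682, 442, 536 and 95 reads in A549 and 245, 178, 249 and 137 in HCT116, and none in the 4 MHCC97H libraries. For PAX3 and NKX2-2 the MHCC97H libraries lay above all others, while for TBX18 the A549 and HCT116 libraries overlapped.

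Other members were high in HCT116 or A549. IRX4, an Iroquois factor of the heart ventricle, had 226, 141, 185 and 190 reads in HCT116, at most 7 in an A549 library and at most 1 in MHCC97H. TBX20, a cardiac T-box factor, had 39, 37, 43 and 48 reads in A549, at most 3 in MHCC97H and 0 in HCT116. LHX2, a LIM-homeodomain factor of forebrain and hair follicle stem cells, reached 5.07 RPKM in untreated HCT116. EN2, a factor of the midbrain-hindbrain boundary, reached 1.35 RPKM in A549 under TSA and was at 0 to 2 reads in MHCC97H. OTX1, a forebrain factor, and PAX9, a factor of pharyngeal pouches and teeth, peaked in HCT116 under TSA at 6.46 and 3.07 RPKM. The GSX family was close to silent: GSX2 reached 0.0556 RPKM, from 1 read in A549 under TSA, and GSX1 had no read.

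Under TSA 12 of the 53 tested genes rose and 2 fell. The 12 were DLX2, DLX3, DLX4, DLX6, MSX1, MSX2, NKX3-2, NKX6-1, PAX5, SIX2, TBX4 and TBX19, and the 2 were LHX8 and TBX15. Over all 16929 genes tested, 17.4% were called higher and 17.2% lower, so the share of the developmental factors called higher (22.6%) was near that of all genes and the share called lower (3.77%) was below it. The median log2 change of the 53 was 0.44, against 0.08 over all genes tested, and 38 of the 53 values were above 0. At an unadjusted p under 0.05 in edgeR were 18 of the 53 genes, 15 of them higher, against 7862 of all 16929 genes tested. These calls depended on the A549 libraries: without that line none of the 43 genes still tested was called (10 of the 14 were among them, all with the same sign, adjusted p 0.0679 to 0.205), and over all genes 0.0679% were then called higher and 0.00617% lower. Without MHCC97H only MSX1 and MSX2 were still called (all genes 3.69% higher and 3.35% lower), and without HCT116 the calls were 8 higher and 4 lower (all genes 20.4% and 19.6%).

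**Figure D2:**
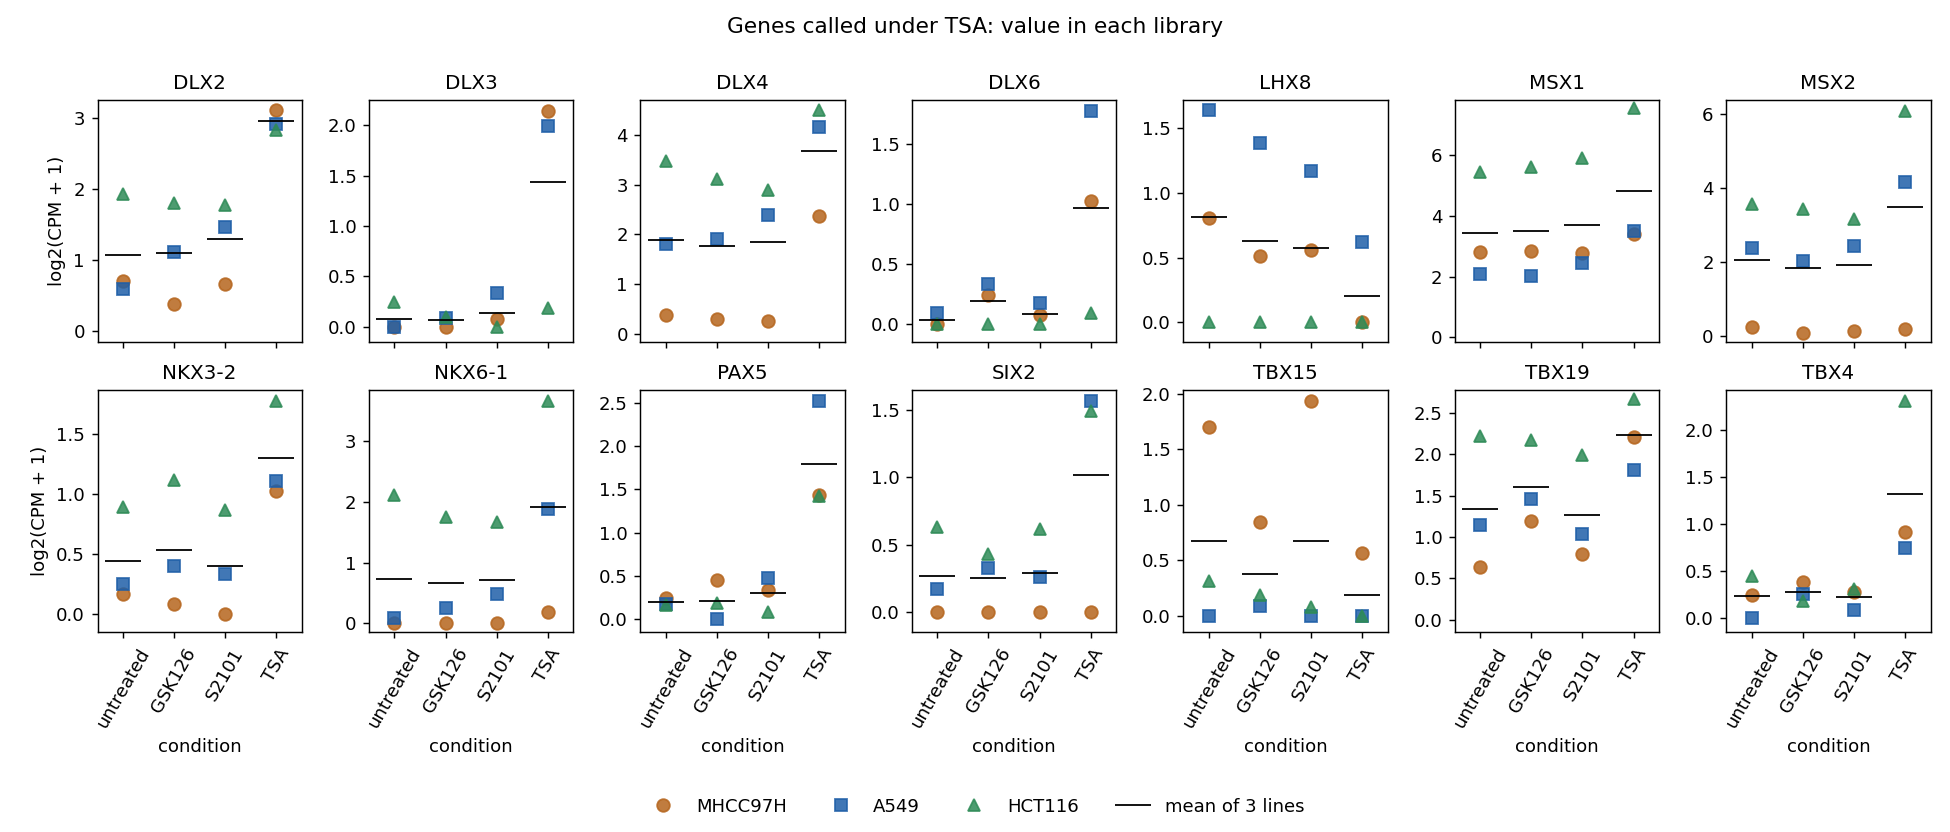
Value in each library, as log2(CPM + 1), of the 14 genes called under TSA (12 higher, 2 lower), by condition; symbols are the 3 lines and the bar is their mean. In DLX2, NKX3-2, PAX5 and TBX4 the 3 TSA libraries lie above the 3 untreated ones, while MSX2 and NKX6-1 differ mainly in A549 and HCT116.

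The DLX family, homeodomain factors of branchial arches, limbs and forebrain interneurons, held the largest group: 4 of its 5 tested members rose. DLX2 had 10, 8 and 46 reads in untreated MHCC97H, A549 and HCT116 and 112, 97 and 91 under TSA. Every TSA library lay above every untreated one, although in HCT116 the gene already had a clear level. The level was 1.32 ± 1.2 CPM untreated and 6.29 ± 1.01 under TSA (SD, n = 3, TMM-scaled), a log2 change of 2.63 ± 0.62 (SE, adjusted p = 0.0121). DLX4 had 5, 39 and 164 reads untreated and 61, 248 and 319 under TSA, higher in all 3 lines, with overlapping groups because the lines start far apart (log2 change 2.30 ± 0.52, adjusted p = 0.0106).

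DLX3 and DLX6 came from almost no reads. DLX3, a factor of skin, teeth and placenta, had 0, 0 and 3 reads untreated and 50, 44 and 2 under TSA (adjusted p = 0.0376). The change lay in MHCC97H and A549, where TSA was at least 18.3-fold and 15.5-fold higher if 3 reads stand for a count of 0, and not in HCT116. Summed over the lines, the ratio of 96 to 3 reads was 34.6 (exact 95% interval 11.5 to 171, counting error only). DLX6 had 0, 1 and 0 reads untreated and 15, 36 and 1 under TSA (adjusted p = 0.0021), and the ratio of 52 reads to 1 was 56.3, with an interval of 9.66 to 2270. Fitted fold changes of such genes depend on the prior count and are not given. DLX6 overlaps the opposite-strand gene DLX6-AS1, and since the handling of strand is not stated, its reads cannot be told apart from that RNA. The same applies to LHX8, PAX5, TBX4, PITX1, SIX5, TBX2 and TBX18, which overlap opposite-strand genes too. Of the other members named here, it also applies to IRX4, IRX6, LHX2, LHX5, NKX2-2, NKX6-2, PAX3, PAX9, SIX6 and TBX5. DLX1 was not called (log2 change -0.89 ± 0.48, adjusted p = 0.179), and DLX5 had at most 6 reads in a library.

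MSX1 and MSX2, homeodomain repressors downstream of BMP signalling, make up their whole family here, and both rose. MSX1 had 97, 51 and 696 reads in untreated MHCC97H, A549 and HCT116 and 140, 152 and 2780 under TSA. The value in HCT116 under TSA, 96 RPKM, was the highest of any member in any library. The groups overlapped, because untreated HCT116 lay above TSA-treated MHCC97H and A549, and within lines TSA was higher in 3 of 3 (log2 change 1.36 ± 0.29, adjusted p = 0.00807). MSX2 had 3, 66 and 176 reads untreated and 2, 250 and 985 under TSA, so it was higher in A549 and HCT116 and stayed near 0 in MHCC97H (log2 change 1.85 ± 0.43, adjusted p = 0.012). Without HCT116 neither of the MSX genes was called.

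Among the 7 tested NKX genes 2 rose. NKX6-1, a factor of beta cells and ventral spinal cord, had 0, 1 and 54 reads untreated and 2, 40 and 172 under TSA (log2 change 2.72 ± 0.64, adjusted p = 0.0122), with 2 of 3 lines well above their control and MHCC97H near 0 throughout. NKX3-2, which holds back cartilage maturation, had 2, 3 and 14 reads untreated and 15, 17 and 36 under TSA, and each TSA value exceeded each untreated value (log2 change 2.16 ± 0.67, adjusted p = 0.0339).

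PAX5 and SIX2 were the called members of their families. PAX5, the commitment factor of the B lineage, had 3, 2 and 2 reads untreated and 25, 70 and 25 under TSA. It was near 0 in every library without TSA (at most 6 reads) and higher with it in all 3 lines (log2 change 3.90 ± 0.82, adjusted p = 0.0081). The other 6 tested PAX genes were not called; PAX7, a satellite cell factor with at most 5 reads in a library outside A549, had 24, 74, 45 and 4 reads there in the order untreated, GSK126, S2101 and TSA. SIX2, which maintains kidney progenitors, had 0, 2 and 9 reads untreated and 0, 29 and 27 under TSA, with no read in MHCC97H in any condition (log2 change 2.40 ± 0.66, adjusted p = 0.0347). SIX3, SIX4 and SIX5 were not called.

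The T-box genes moved in both directions. TBX4, a factor of hindlimb and lung mesenchyme, had 3, 0 and 6 reads untreated and 13, 10 and 59 under TSA (log2 change 3.05 ± 0.73, adjusted p = 0.0131), and the groups did not overlap. TBX19, the pituitary factor of corticotroph cells, had 9, 19 and 60 reads untreated and 53, 37 and 80 under TSA, higher within each line though the groups overlapped (log2 change 1.19 ± 0.39, adjusted p = 0.0412). TBX15, a factor of skeleton and adipose tissue, fell: 36, 0 and 4 reads untreated stood against 7, 0 and 0 under TSA, so the result came from MHCC97H and a few HCT116 reads (log2 change -2.66 ± 0.90, adjusted p = 0.0467).

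LHX8, a LIM-homeodomain factor of cholinergic neurons and oocytes, was the other gene that fell. It had 12 and 33 reads in untreated MHCC97H and A549 and 0 and 8 under TSA, and no read in HCT116 in any condition (log2 change -2.79 ± 0.81, adjusted p = 0.0408). When the A549 S2101 library was left out, 9 genes were called higher and none lower, against 14.4% and 13.6% of all genes. The calls lost were LHX8, TBX15, DLX3, SIX2 and TBX19 (adjusted p 0.0707, 0.0644, 0.052, 0.0613 and 0.0606), all with the same sign. DESeq2 did not call LHX8, TBX15 or SIX2 either (adjusted p 0.0616, 0.104 and 0.092). Over all 72 genes, after TMM scaling, the 3 TSA libraries lay above the 3 untreated ones in 8, against 9.95% of all 25647 genes. These were DLX2, NKX3-2, PAX5 and TBX4 and the scarce LHX9, SIX6, TBX10 and TBX21. SIX5 was the only member whose 3 TSA libraries lay below the untreated ones on that scale, against 7.6% of all genes.

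Promoter sequences are shown for 5 of the genes called higher, because genes with like responses can then be set beside their base composition: DLX2 and PAX5 as genes whose groups did not overlap, DLX6 for its rise from 1 read, MSX1 for the highest level, and TBX19 as the CpG-poor exception. They are the 250 bases before the RefSeq start site in GRCh38.p14, written 5′ to 3′ on the gene's strand, with each CG dinucleotide in capitals. The windows are chr2:172102901-172103150 (minus strand) for DLX2, chr9:37034269-37034518 (minus) for PAX5, chr7:97005303-97005552 (plus) for DLX6, chr4:4859415-4859664 (plus) for MSX1 and chr1:168280627-168280876 (plus) for TBX19.
DLX2: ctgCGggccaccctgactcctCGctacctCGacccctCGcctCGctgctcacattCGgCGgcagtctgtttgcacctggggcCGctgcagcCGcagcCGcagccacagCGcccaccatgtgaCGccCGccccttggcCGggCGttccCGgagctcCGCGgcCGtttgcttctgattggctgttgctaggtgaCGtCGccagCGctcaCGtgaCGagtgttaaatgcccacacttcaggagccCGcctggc
PAX5: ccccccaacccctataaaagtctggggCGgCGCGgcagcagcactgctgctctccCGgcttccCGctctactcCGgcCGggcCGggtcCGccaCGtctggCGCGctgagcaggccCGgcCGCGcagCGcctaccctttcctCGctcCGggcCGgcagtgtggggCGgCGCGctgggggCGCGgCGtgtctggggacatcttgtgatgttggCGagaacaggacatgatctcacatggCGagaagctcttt
DLX6: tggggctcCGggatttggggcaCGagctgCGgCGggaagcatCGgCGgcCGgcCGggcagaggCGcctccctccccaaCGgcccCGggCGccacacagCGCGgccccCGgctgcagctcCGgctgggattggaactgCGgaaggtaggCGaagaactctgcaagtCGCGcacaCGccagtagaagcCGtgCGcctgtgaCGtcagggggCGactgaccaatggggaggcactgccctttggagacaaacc
MSX1: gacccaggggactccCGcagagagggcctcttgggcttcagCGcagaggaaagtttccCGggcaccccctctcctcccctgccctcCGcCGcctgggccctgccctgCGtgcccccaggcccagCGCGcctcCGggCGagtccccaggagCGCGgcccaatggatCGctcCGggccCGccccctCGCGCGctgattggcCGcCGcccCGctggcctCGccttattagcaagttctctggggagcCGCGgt
TBX19: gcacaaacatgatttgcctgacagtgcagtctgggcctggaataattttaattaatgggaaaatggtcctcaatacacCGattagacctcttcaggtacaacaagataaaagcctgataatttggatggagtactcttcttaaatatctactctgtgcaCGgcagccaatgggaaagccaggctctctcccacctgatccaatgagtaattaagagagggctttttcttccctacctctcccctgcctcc

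These windows hold 25 CG dinucleotides for DLX2, 27 for PAX5, 25 for DLX6 and 24 for MSX1, against 2 for TBX19. RefSeq windows were matched for 50 of the 72 genes, and their median count was 18.5, with 44 of the 50 (88%) at 10 or more. Over 15842 protein-coding genes the median was 17 and 69.5% reached 10. Within the set, 10 genes called higher under TSA had a median of 23.5 and 25 genes tested without a call had a median of 20, so high CG content was common to called and uncalled members. Of 3 motifs searched on both strands, TATAAA was in 6.85% of the members' windows and in 10.7% of all windows, CCAAT in 41.1% and 32%, and GGGCGG in 52.1% and 42.6%. A match describes letters and is not a measured binding site.

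Neighbouring members did not always move together. DLX1 and DLX2 lie 9.8 kb apart on chromosome 2 (chr2:172085507-172089674 and chr2:172099438-172102900). Within lines, the log2 ratio of CPM + 1 under TSA was 2.31, 2.17 and 0.81 for DLX2 in MHCC97H, A549 and HCT116, and -0.01, -0.92 and -0.44 for DLX1. In MHCC97H DLX1 had 1 read untreated and 1 under TSA, so its ratio there is a value at the floor. DLX3 and DLX4, 15 kb apart on chromosome 17, had like ratios in MHCC97H (2.11 and 1.90) and A549 (1.89 and 2.14) but not in HCT116 (-0.07 and 0.93). TBX2 and TBX4, 43.0 kb apart on the same chromosome, had ratios of -3.41 and 0.62 in MHCC97H and -0.32 and 0.69 in A549. In HCT116 both were higher (0.83 and 1.75). Each ratio compares 1 library with 1 other, so these are values with no test.

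The number of members that could be detected, at 1 CPM or more, was higher under TSA in every line. MHCC97H went from 16 of 72 untreated to 29, A549 from 30 to 44 and HCT116 from 32 to 38. The mean gain was 11 ± 4.4 genes (SD, n = 3 lines; exact two-sided sign-flip permutation test p = 0.25, the smallest that 3 lines allow). In percent, the members went from 22.2 to 40.3 in MHCC97H (all genes 51.1 to 57.1), from 41.7 to 61.1 in A549 (52.9 to 59.1) and from 44.4 to 52.8 in HCT116 (54 to 58.2). GSK126 gave gains of 1, 5 and -4 (0.7 ± 4.5, exact permutation p = 0.75) and S2101 gains of 1, 2 and -1 (0.7 ± 1.5, exact permutation p = 0.75), so neither gain exceeded the spread between lines.

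**Figure D3:**
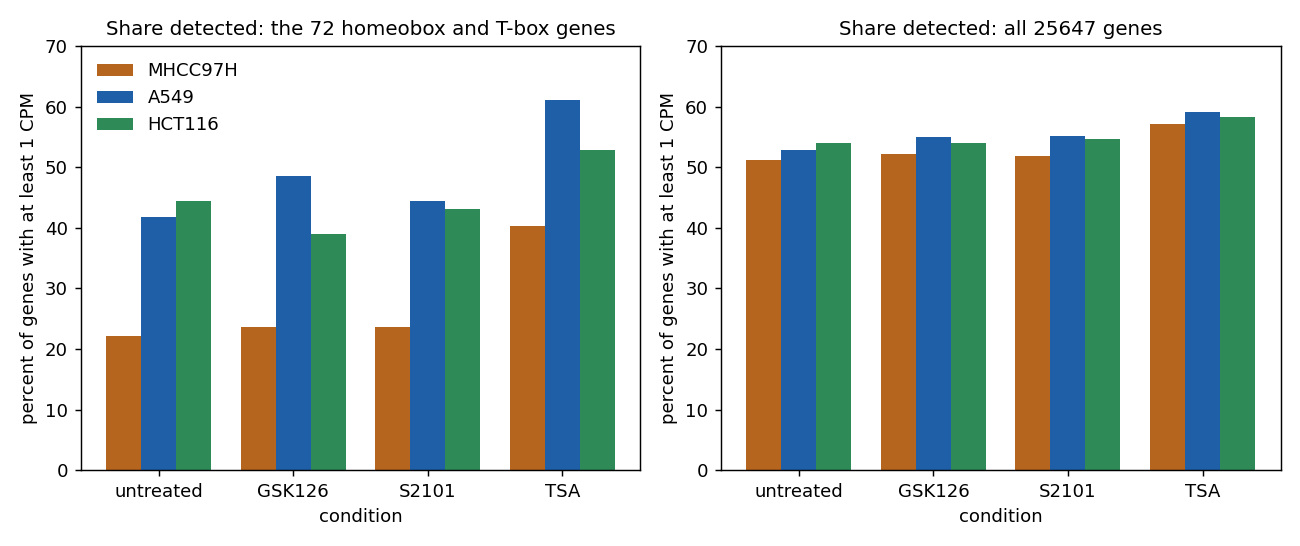
Percent of the 72 genes (left) and of all 25647 genes (right) with at least 1 CPM, by condition and line; each bar is 1 library. The members stand at 40.3 to 61.1% under TSA and at 22.2 to 44.4% untreated, and MHCC97H is the lowest line in each condition.

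A stricter count asked for genes under 0.1 CPM untreated and at 1 CPM or more after treatment in the same line. TSA switched on 3 of 39 such members in MHCC97H (7.69%, against 5.28% of all such genes), 7 of 29 in A549 (24.1%, against 5.5%) and 0 of 28 in HCT116 (all genes 1.71%). DLX3 and DLX6 were switched on in both MHCC97H and A549, SIX3 in MHCC97H, and LHX5, NKX2-3, NKX6-1, NKX6-2 and TBX10 in A549. SIX3, a factor of forebrain and eye, had 0 reads in the 3 other MHCC97H libraries and 18 under TSA, at least 6.57-fold higher than untreated.

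In A549 the remaining switched-on genes had few reads elsewhere. LHX5, a forebrain LIM-homeodomain factor, had 0, 0, 1 and 15 reads in the order untreated, GSK126, S2101 and TSA. NKX2-3, a factor of gut and spleen vessels, had 1, 4, 3 and 35, and NKX6-2, a factor of oligodendrocytes, 1, 2, 3 and 22. TBX10 had 0, 1, 2 and 21 reads. TSA was the high library in each case, and the other 3 lay at 4 reads or fewer. NKX6-2 overlaps INPP5A and LHX5 overlaps LHX5-AS1 on the other strand, so the reads of both are uncertain in the same way as those of DLX6. Summed over the 7 genes switched on in A549, which were chosen for being high under TSA, the untreated, GSK126, S2101 and TSA libraries held 4, 15, 21 and 213 reads. Scaled by library totals, the shares of the TSA level given above (2.33 and 7.95%) would give 5.3 reads with GSK126 and 17.4 with S2101. No member went the other way, from 1 CPM or more to under 0.1 CPM, under any compound.

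Under GSK126, 0 of the 53 tested genes were called in either direction, and 0% of all genes tested were called. An unadjusted p under 0.05 in edgeR was reached by 1 of the 53, against 2809 of all 16929 genes tested. The smallest adjusted p was 0.238, the median log2 change -0.04 (all genes 0.01), and the median SE was 0.66 on the log2 scale. DLX6 gave that smallest p, on 7 reads against 1 untreated (ratio 7.24, exact 95% interval 0.931 to 326). Leaving the TSA libraries out of the model raised the calls over all genes to 6.42% higher and 6.63% lower, but those among the 48 members still tested stayed at 0. DESeq2 called 4.48% and 5.05% of genes with an adjusted p and none of the 17 members that had one.

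TBX2 was the only member switched on by GSK126, in HCT116 (1 of 28 members, against 0.0949% of genes; 0 members in MHCC97H and A549, against 0.022 and 0.219%). In that line, 0 reads in the untreated library stood against 17 with GSK126, 8 with S2101 and 13 with TSA. GSK126 was at least 6.38-fold higher than untreated if 3 reads stand for a count of 0. All 3 treated HCT116 libraries were above the untreated one at a level, 0.473 to 1.17 CPM, that is far below the 66.8 CPM of untreated MHCC97H. Under S2101, 0 of 53 were called as well, with and without the A549 library described above; 1 had an unadjusted p under 0.05 in edgeR (IRX6, with 14 reads untreated and 2 under S2101 in HCT116), and 0% of all genes were called. Of all 16929 genes tested, 852 were under that unadjusted limit in edgeR with S2101. DESeq2 called no member either (all genes 0.0904% higher and 0.0181% lower). No member was switched on by S2101, against 0, 0.335 and 0.0475% of genes in MHCC97H, A549 and HCT116.

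**Figure D4:**
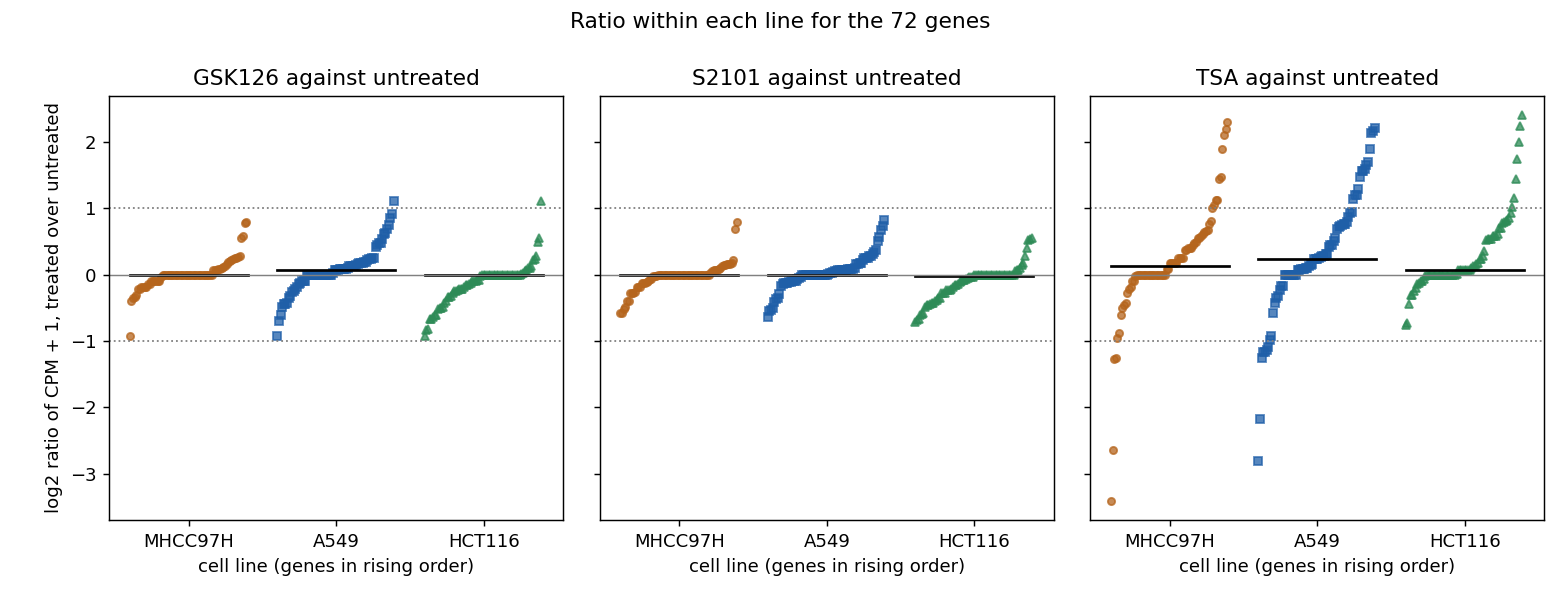
Log2 ratio of CPM + 1, treated over untreated in the same line, for each of the 72 genes in rising order (points), with the median per line (bar) and dotted lines at a 2-fold change. On this scale only PAX7 in A549 and TBX2 in HCT116 exceed 2-fold under GSK126, and no gene does under S2101. Of all genes, 1.3, 4.27 and 1.61% lie above with GSK126 in MHCC97H, A549 and HCT116, and 1.26, 1.8 and 0.546% with S2101. Under TSA 9, 14 and 7 of the 72 genes lie above and 4, 7 and 0 below in these lines. That is 12.5, 19.4 and 9.72% above (all genes 10.5, 11 and 5.16%) and 5.56, 9.72 and 0% below (all genes 9.58, 10.1 and 3.33%). The added 1 CPM damps changes of scarce genes, so some exceed 2-fold by reads alone. Examples are NKX2-8 in A549 (11 reads untreated, 36 with GSK126) and IRX6 in HCT116 (14 untreated, 2 with S2101).

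TSA was also set directly against GSK126, a comparison that shares its TSA libraries with the one above. Of 53 genes 11 were higher under TSA and 1 lower (20.8% and 1.89%; all genes 14.7% and 14.2%). PITX3 and SIX5 were called here and not against untreated. PITX3, a factor of lens and dopamine neurons, had 7, 6 and 30 reads in untreated MHCC97H, A549 and HCT116. It had 3, 3 and 11 reads under GSK126 and 23, 56 and 58 under TSA (log2 difference 3.19 ± 0.81, adjusted p = 0.0192). SIX5 had 309, 394 and 327 reads untreated, 581, 593 and 313 under GSK126 and 228, 189 and 297 under TSA. It was lower under TSA than under GSK126 in 3 of 3 lines but by little in HCT116 (log2 difference -1.05 ± 0.34, adjusted p = 0.0447). Part of both differences thus lay between GSK126 and untreated, where neither gene was called. Without A549, none of the members was called in this comparison, and neither was any of the 16202 genes then tested, in either direction (0%; 4193 had an unadjusted p under 0.05 in edgeR).

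Some of the most abundant members took different courses in the 3 lines, and they were chosen for display after their values were seen. PITX1, a hindlimb and pituitary factor, had 393, 298 and 380 reads in untreated MHCC97H, A549 and HCT116 and 54, 61 and 544 under TSA. It was thus lower in the first pair of lines (log2 ratios -2.64 and -2.18) and higher in HCT116 (0.54), and no change was called over the lines (adjusted p = 0.225). TBX2 had 1071, 97 and 0 reads untreated and 93, 84 and 13 under TSA, with the large difference in MHCC97H (adjusted p = 0.448). TBX3, the close relative of TBX2 known from limb and breast development, had 244, 497 and 217 reads untreated and 422, 368 and 1064 under TSA (adjusted p = 0.151). TBX18 in A549 had 682 reads untreated and 95 under TSA, and in HCT116 245 and 137 (log2 change over the lines -1.77 ± 0.55, adjusted p = 0.0502). Within a line there is 1 library per condition, so differences between lines in the response were not tested.

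**Figure D5:**
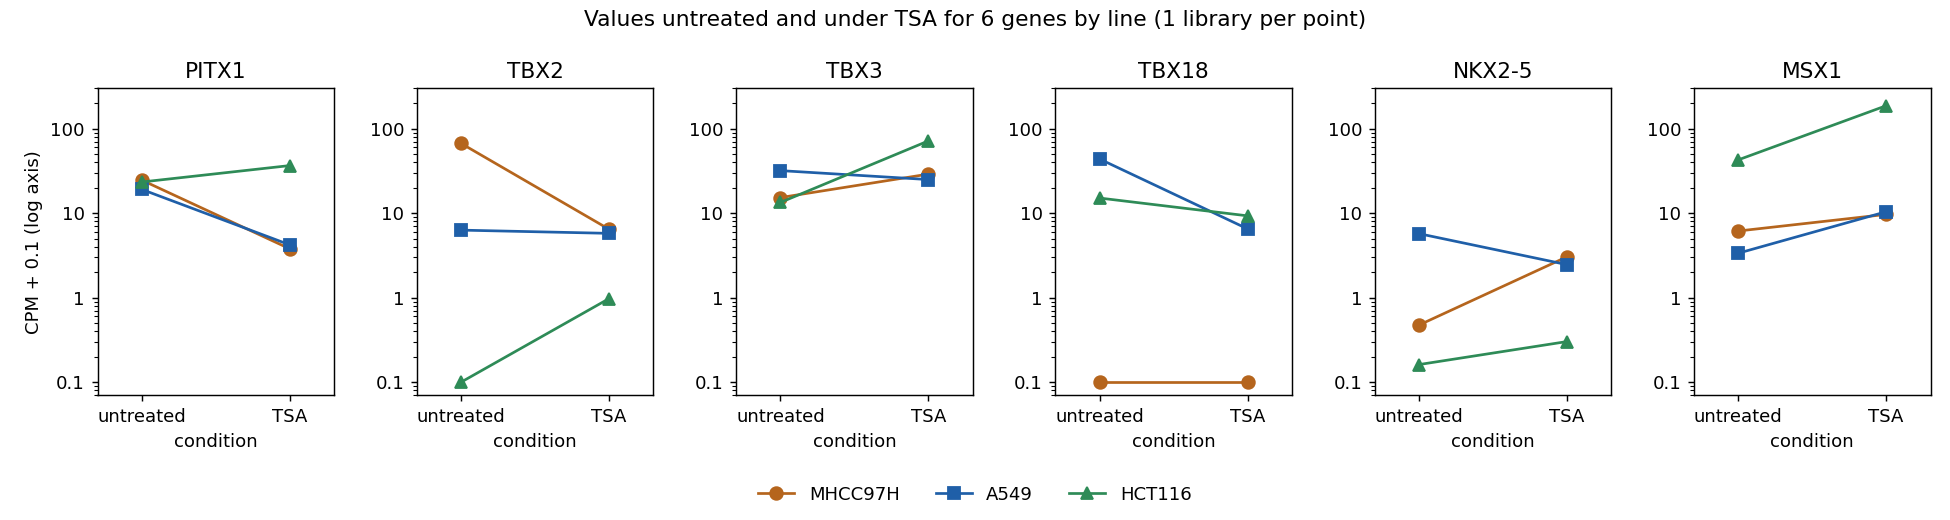
CPM + 0.1 on a log axis, untreated and under TSA, for 6 genes in MHCC97H, A549 and HCT116; each point is 1 library. PITX1 is lower under TSA in MHCC97H and A549 and higher in HCT116 (log2 ratio 0.54), TBX2 is lower in MHCC97H, TBX3 is highest in TSA-treated HCT116, and MSX1 is higher in all 3 lines.

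Genes that work with these factors or silence them were counted for context, from lists of partners, Polycomb subunits and related factors. Of 30 partner genes 25 were tested, and under TSA 4 rose and 4 fell (median log2 change 0.28; over all genes 17.4% rose, 17.2% fell and the median was 0.08). MEIS1 and MEIS3, homeodomain cofactors of the TALE class, rose (log2 changes 1.95 ± 0.41, adjusted p = 0.0147, and 1.34 ± 0.31, adjusted p = 0.012). PKNOX2, of the same class, had 0 reads untreated and 39 under TSA over the 3 lines, at least 14.1-fold higher with 3 reads over the group standing for 0 (adjusted p = 0.0113). PBX2, a TALE partner, and AES, a short corepressor of the Groucho class, fell (log2 changes -1.64 ± 0.28, adjusted p = 0.00381, and -1.44 ± 0.17, adjusted p = 0.00168).

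All 31 genes of Polycomb complexes and H3K27 demethylases were tested, and under TSA 5 rose and 10 fell (median log2 change -0.19). The PRC2-associated PHF19 fell by 2.31 on the log2 scale (SE 0.52, adjusted p = 0.0106) and the PRC1 subunit PCGF6 by 1.48 (SE 0.18, adjusted p = 0.00164), while the demethylase KDM6B rose by 1.15 (SE 0.33, adjusted p = 0.0263). Under GSK126 the log2 change of KDM6B was the same size but not called (1.15 ± 0.33, edgeR adjusted p = 0.137). PHF19 and PCGF6 changed there by -0.83 ± 0.49 and -0.56 ± 0.17, also without a call. EZH2, the target of GSK126, was not called under TSA (-0.49 ± 0.24, adjusted p = 0.142) or GSK126 (-0.82, adjusted p = 0.143). HDAC1 and KDM1A were not called either (TSA log2 changes 0.15 ± 0.17, adjusted p = 0.51, and -0.31 ± 0.15, adjusted p = 0.146). Among 59 developmental factors of other families, 26 were tested and 2 rose under TSA, the heart factor HAND1 (105 reads against 3 untreated, ratio 37.9, exact 95% interval 12.6 to 187.0, adjusted p = 0.0277) and the neural factor NEUROG2 (log2 change 1.78 ± 0.50, adjusted p = 0.0248), with none lowered and a median log2 change of -0.15. In each of the 3 lists 0 genes were called under GSK126 and under S2101.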

How the data were processed

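Poly(A) RNA of 12 libraries was measured. The authors deposited, per library, raw read counts per gene symbol and RPKM values computed from them, per the file headers. The submitters' processing notes name GRCh38 (hg38). For the aligner, the counter and the handling of strand, no tool or setting was stated in the labels or headers. Thus 28 members that overlap a gene on the other strand are uncertain. Entries naming no gene (11 in 11 tables) were left out. Gene coordinates and promoters came from RefSeq (GRCh38.p14), which matched 72 of 72 members by symbol.

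The deposited counts were tested with edgeR 4.0.16 (R 4.3.3; quasi-likelihood test, TMM factors 0.889 to 1.118, filterByExpr) in 1 model of all 12 libraries with condition and cell line, leaving 6 residual degrees of freedom. The line pairs libraries, since each line gave 1 library per condition. P-values rest on the spread left after condition and line, pooled over the 12 libraries. That spread holds unequal responses of the lines together with culture and library noise, which no repeat culture separates. Calls have Benjamini-Hochberg adjusted p under 0.05 over all 16929 genes tested, and ± after a log2 change is the SE. This SE was derived from the test, as the absolute log2 change divided by the square root of its F value. For genes with few reads it is only approximate. DESeq2 1.42.0 was an alternative. The procedure was tested on simulated data.

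Values in every library are given for members called in any of 4 comparisons, members switched on, and the member of each family with the highest RPKM; others named were chosen after their values were seen. The members and lists were chosen with earlier results of these data known. Some members are not reported by name here.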

Additional observations from a re-analysis of the deposited data

Results flagged for a closer look

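NKX2-5, a heart and spleen homeodomain factor, was flagged by its log2 ratio of CPM + 1 within a line. On that scale it was the only member at 1 or more in 1 line and at -1 or less in another under the same compound. MHCC97H had 6 reads untreated and 43 under TSA, a log2 ratio of CPM + 1 of 1.44. A549 had 88 reads untreated and 35 under TSA, a log2 ratio of -1.16, and HCT116 had 1 and 3 reads. The added 1 CPM damps changes of scarce genes, and by reads alone other members also moved both ways under TSA. TBX2 had 1071 reads untreated and 93 under TSA in MHCC97H, and 0 and 13 in HCT116. TBX1 had 1 and 6 in MHCC97H, and 37 and 8 in A549. Differences between lines were not tested, since each value compares 1 library with 1 other.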

How the results depend on the processing

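The 12 genes called higher and 2 lower under TSA became 4 and 0 of the 13 members tested with a filter of 10 CPM in 3 libraries. Over all genes that filter gave 2281 higher and 1981 lower of 11385. Calls were 0 and 0 without the cell line term (no replicate block, so libraries of a line are not paired), where 260 of 16394 genes were called in all. They were also 0 and 0 with only the 6 libraries compared, where 0 of 16468 genes were called. DESeq2 called 14 of the 53 members higher and 1 lower (all genes 21.2% and 18.6%). It kept 11 of the 14 calls of the main model, all higher, lost LHX8, TBX15 and SIX2, and its 1 lower gene was TBX18. Leaving out the A549 S2101 library gave 9 higher and 0 lower (all genes 14.4% and 13.6%). Leaving out each line in turn gave 0 to 8 higher and 0 to 4 lower (all genes 0.0679 to 20.4% and 0.00617 to 19.6%). For TSA against GSK126 (11 higher, 1 lower) the 10 CPM filter gave 4 and 0 of 13 members (all genes 1981 and 1739 of 11385). No replicate block gave 0 and 0 (all genes 14 of 16394) and the 6 libraries 0 and 0 (164 of 16461). Leaving out each line gave 0 to 8 and 0 to 4 in that comparison (all genes 0 to 16.4% and 0 to 17.5%). The 46 genes that differed between lines became 10 with the 10 CPM filter, which tests 13 members (all genes 8226 of 11385). The mean gain of detected genes under TSA was 3.0 at 5 CPM; under GSK126 it was -0.3 at 5 CPM, and leaving out each line gave -1.5 to 3.0, with -1.5 without A549. The 8 genes that TSA switched on were 5 with 0 reads required untreated, 14 at 0.5 CPM and 5 at the limits of 0.2 and 2 CPM, where GSK126 had 0. GSK126 and S2101 gave 0 calls among the members under each alternative run. Over all genes the largest numbers were 2114 of 16201 for GSK126, without the TSA libraries, and 25 of 15898 for S2101, with only the 6 libraries compared. Of the 14 calls under TSA, 14 kept their sign and their call with RLE size factors. Apart from the filter and the number of libraries, the cause of these shifts was not tested. The number of reads limits genes below about 1 CPM, where a library holds few of them.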
